A study of Mus musculus with 3 samples.

Results

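Aquaporins are membrane channels of epithelia and other tissues, and 8 genes of this family were followed through epithelial cells released from 3 regions of the mouse intestine. Members were taken by gene symbol from a fixed list, not from measured values: Aqp1, Aqp3, Aqp4, Aqp5, Aqp7, Aqp8, Aqp9 and Aqp11, which are 8 of the 24346 genes in the deposited tables. The large intestine and the lower and upper parts of the small intestine each gave 1 RNA sequencing library. For all of them, opened and washed bowel had been shaken for 20 min at 37 °C in buffer with 5 mM EDTA, and no sorting of the released cells is described. The labels name no genotype, treatment, age or number of animals for any library. A strain entry stands on the upper small intestinal library alone and describes a mouse colorectal cancer model, MC38, so with that library strain and region cannot be told apart if the entry holds.

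Water crosses epithelia through and between cells, drawn by salt and nutrient transport, and aquaporins let it pass the cell membrane. Family members fall into classes. Aqp1, Aqp4 and Aqp5 are water channels in the strict sense. Aqp3, Aqp7 and Aqp9 also pass glycerol and are called aquaglyceroporins. Aqp8 passes water and other small molecules such as ammonia and hydrogen peroxide. Aqp11 is an intracellular member of divergent sequence. In the colon the channels are known for water recovery from the lumen, and in enterocytes the aquaglyceroporins are also studied for glycerol handling.

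The members differ at the most conserved place of the family. Aquaporins carry a pair of short signature motifs, asparagine-proline-alanine (NPA), which line the narrow part of the pore. The stretches of reference coding sequence (GENCODE M21) that hold them are shown for 4 members on whose values the results turn, with the motif codons in capitals, to let the usual form in Aqp8 and Aqp3 be set beside the altered forms in Aqp7 and Aqp11.
Aqp8 motif 1: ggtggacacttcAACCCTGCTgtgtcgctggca
Aqp8 motif 2: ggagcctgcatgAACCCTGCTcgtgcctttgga
Aqp3 motif 1: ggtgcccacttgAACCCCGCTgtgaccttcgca
Aqp3 motif 2: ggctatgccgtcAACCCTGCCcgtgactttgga
Aqp7 motif 1: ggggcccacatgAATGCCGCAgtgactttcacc
Aqp7 motif 2: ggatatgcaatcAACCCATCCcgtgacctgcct
Aqp11 motif 1: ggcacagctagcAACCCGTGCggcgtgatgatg
Aqp11 motif 2: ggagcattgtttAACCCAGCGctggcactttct
In Aqp8 and Aqp3 both motifs read NPA. In Aqp7 they read NAA and NPS, and in Aqp11 the first reads NPC and the second NPA. Both motifs also read NPA in the coding sequences of Aqp1, Aqp4, Aqp5 and Aqp9.

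Levels are in FPKM, in which fragments are scaled to transcript length and library size, so that genes can be compared with one another within a library. Low values lay on steps of single reads. At a length of 2 kb, 1 FPKM came to some 16.4 reads in the large, 21.3 in the lower and 14.3 in the upper library, and these steps were used to turn each value into implied reads. Epithelial identity was checked first: all 8 epithelial markers were above 1 FPKM in every library, with sums of 7566, 7598 and 5458 FPKM (here and below in the order large, lower, upper). Markers of some other cells differed between libraries. The 6 Paneth cell markers summed to 32.8, 17736 and 17510.2 FPKM, the widest shift of the lists, and the 7 B and plasma cell markers to 0.143, 31.6 and 30.6 FPKM. Of the B and plasma cell markers, Jchain alone was at 0, 22.5 and 28.1 FPKM, and 0, 5 and 1 of the 7 reached 1 FPKM. The 7 T cell markers found summed to 10.8, 542 and 539 FPKM, and the 9 pancreatic acinar markers to 0.683, 0.602 and 59.3 FPKM, 8 of them above 1 FPKM in the upper library. With 1 library per region no difference has a replicate check, and no p-value was computed. Brackets hold 95% Clopper-Pearson intervals on a ratio, from implied reads, and cover counting error alone. Fewer cells of a type and less RNA per cell cannot be told apart in such bulk samples.

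The make-up of aquaporin transcript differed by region. The 8 members summed to 415 FPKM in the large intestine, 112 FPKM in the lower and 165 FPKM in the upper small intestine. Aqp8 made up 59.6% of the large intestinal sum and Aqp4 25.9%. In the small intestine Aqp1 made up most of it, 66.2% in the lower and 53.1% in the upper part, followed by Aqp11 with 19.8% and 28.0%. Without Aqp8 and Aqp4 the order of the sums was turned, at 59.9, 105 and 157 FPKM. The 3 aquaglyceroporins together lay at 0.679, 8.52 and 23.0 FPKM. Of the sum of all members, Aqp3 made up 0.0507%, 4.82% and 9.65% and Aqp7 0.102%, 2.72% and 4.08% in the large, lower and upper libraries.

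**Figure D1:**
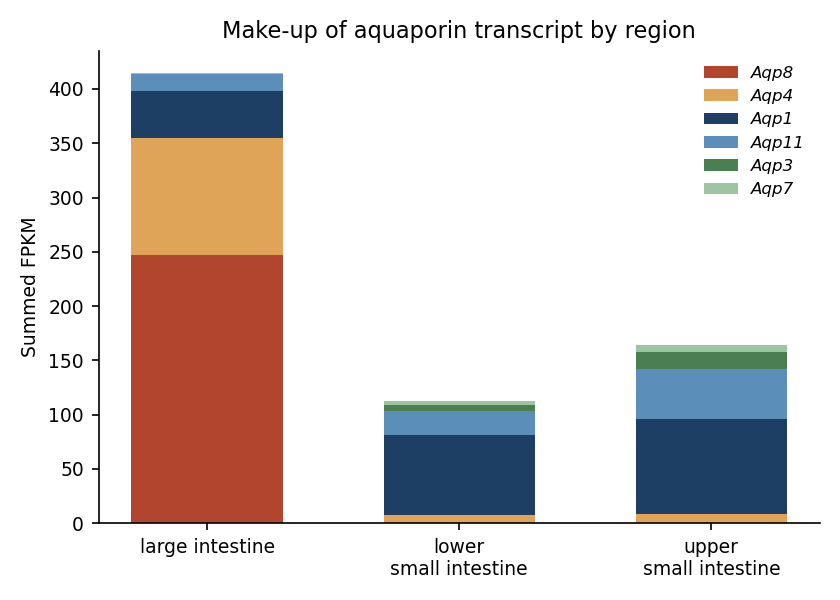
Stacked bars of summed FPKM (vertical axis, from 0) for the large, lower small and upper small intestinal libraries, coloured by gene, 1 library each. Aqp8 and Aqp4 fill most of the large intestinal bar of 415 FPKM, and Aqp1 and Aqp11 most of the bars of 112 and 165 FPKM. Aqp9, at most 0.36 FPKM, and Aqp5, listed at 0, are not drawn.

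Of the 8 members, 6 reached 1 FPKM in at least 1 library, and 5 reached 10 FPKM. Aqp5 and Aqp9 stayed under 1 FPKM throughout. Comparisons used the genes with 1 FPKM in either library, called measured here. Such a gene counted as higher or lower at a difference of at least 1 in log2(FPKM + 1), which is a 2-fold ratio of FPKM + 1, a rule of size and not a test. Between the large and the lower small intestine, 2 of 6 measured members were higher in the large intestine (Aqp4 and Aqp8), where 9.75% of 12376 measured genes were, and 2 were lower (Aqp3 and Aqp7), against 10.5% of all. Between the large and the upper small intestine, 2 of 6 were higher (again Aqp4 and Aqp8), against 11.2% of 12350 genes, and 3 were lower (Aqp3, Aqp7 and Aqp11), against 11.7%. Both comparisons share the large intestinal library. Between the upper and the lower small intestine, 2 of 5 measured members were higher in the upper part (Aqp3 and Aqp11), against 3.92% of 11941 genes, and 0 were lower, against 2.92%. Median differences of the measured members were -0.62, -1.25 and 0.93 in these comparisons, and those of all measured genes were 0.00, 0.00 and -0.03. With so few members, a share is moved far by 1 gene.

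These directions rest on the scale of the deposited values. With libraries brought to 1 common sum, all-gene medians moved to 0.28, 0.37 and -0.12, and the share of higher genes among those past the rule went from 48.2% to 64.0% against the lower and from 49.0% to 69.0% against the upper library. No measured member changed sign under that scaling. The same members stayed past the rule in both comparisons with the large intestine, and in the comparison of upper with lower Aqp11 dropped below it, from 1.03 to 0.93.

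**Figure D2:**
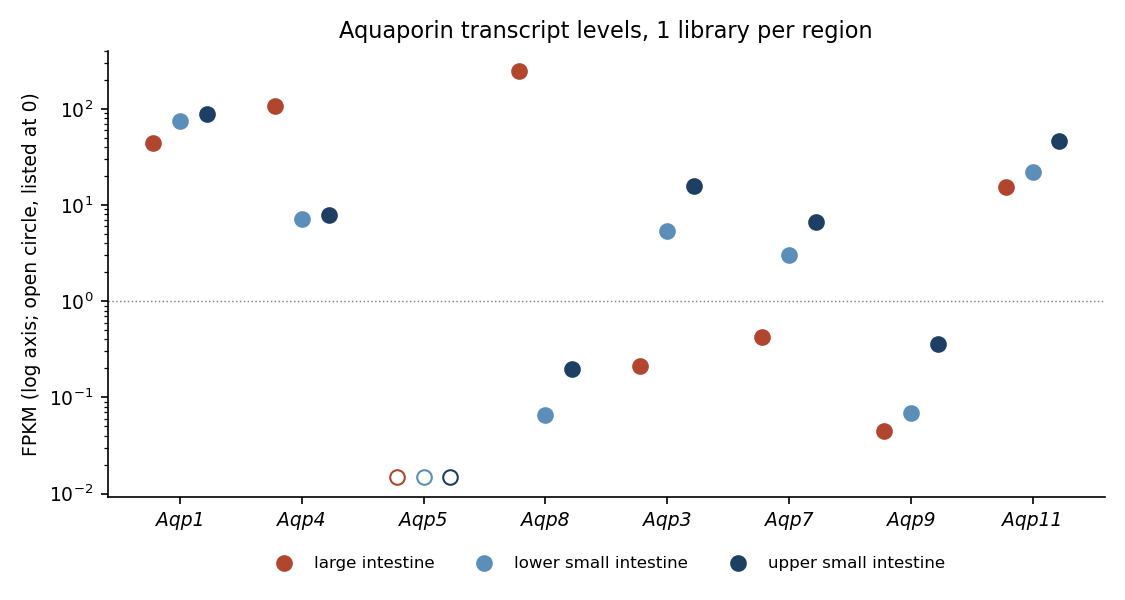
FPKM of each member (vertical log axis) in the large (red), lower small (light blue) and upper small (dark blue) intestinal libraries, 1 point per library. The dotted line is at 1 FPKM and open circles mark genes listed at 0. Aqp8 and Aqp4 have the large intestine on top, while Aqp1, Aqp3, Aqp7, Aqp9 and Aqp11 run from large to lower to upper.

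Aqp8 had the widest difference of the family. Its level was 247 FPKM in the large intestine, 0.066 FPKM in the lower and 0.197 FPKM in the upper small intestine. Only the large intestinal library was high, and the values of the others stood for about 1 and 2 reads, against 2841 reads. The large to lower ratio was 3745 (661 to 145731) and the large to upper ratio 1255 (342 to 10216.5). Among all measured genes, 17 others had a larger log2 difference in favour of the large intestine in each comparison, so Aqp8 took place 18 in both. By level it took place 324 among all genes of the large intestinal library. A difference between lower and upper was not detectable at this depth (ratio of upper to lower 2.98, 0.155 to 176).

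Aqp8 lies on chromosome 7 at 123462291 to 123468004 (plus strand of mm10) and overlaps no other annotated gene. The nearest protein-coding genes of the tables did not share its pattern. Lcmt1, 31933 bases before it, was at 13.3, 17.2 and 27.7 FPKM in the large, lower and upper libraries, and Zkscan2, 7380 bases after it, was listed at 0 in all. The 9 markers of surface and differentiated colonocytes that were found summed to 10897, 2289 and 1373 FPKM, with 9, 8 and 8 of them at 1 FPKM or more, and their part in the result was not tested. Car1 made up most of the large intestinal sum, at 6414, 0.172 and 0.257 FPKM. Krt20 had another order, at 361, 968 and 702 FPKM. Clca4a (40.4, 172 and 78.0 FPKM), Ceacam20 (39.7, 56.1 and 31.1 FPKM) and Mall (58.3, 74.7 and 59.1 FPKM) were also highest in the lower library. The other markers found were highest in the large intestine. The genes most like Aqp8 over the 3 libraries, by Euclidean distance in log2(FPKM + 1), were the homeobox gene Hoxb13 (distance 0.28), Tgm3, which encodes a transglutaminase (0.57), and St6galnac6, which encodes a sialyltransferase (0.78). Hoxb13 was the 1 gene within 0.5 of it. Over 3 libraries, such likeness says little beyond high in the large intestine and near 0 elsewhere.

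Aqp4, a water channel best known from brain astrocytes and also found in gastrointestinal epithelium, was the second member with the large intestine on top. Its level was 107 FPKM there, 7.14 FPKM in the lower and 7.90 FPKM in the upper small intestine. Unlike Aqp8, it was well above 1 FPKM in every library. Large to lower and large to upper ratios were 15.0 (12.1 to 19.1) and 13.6 (10.6 to 17.9). Lower and upper values did not differ beyond counting error, with an upper to lower ratio of 1.11 (0.785 to 1.55). The gene has 11 annotated transcripts. Implied reads of 989, 85 and 63 assume the shortest one with a RefSeq link and would be more, with narrower intervals, for a longer one. Enteric glia could also bear Aqp4, and their 6 markers summed to 0.552, 0.645 and 0.951 FPKM, with Sox10 and Foxd3 listed at 0 in all libraries. Gastric parietal cells are another source of Aqp4. The 8 gastric and duodenal gland markers summed to 0.735, 0.448 and 1.58 FPKM with none at 1 FPKM. Of the parietal acid pump genes, Atp4b was listed at 0 in all libraries and Atp4a at 0, 0.103 and 0.231 FPKM. The part of glia or parietal cells in the Aqp4 values was not tested. Most like Aqp4 in level and pattern were Eno3, an enolase gene (0.47), Hsd3b3, a hydroxysteroid dehydrogenase gene (0.59), and Ndrg2 (0.64). Aqp4 lies on chromosome 18 at 15389496 to 15410982 (minus strand) and an antisense gene overlaps it. Whether counting used strand is not given in the sources used here, so reads of that gene cannot be told apart from those of Aqp4.

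Aqp1, the widely expressed water channel first described in red blood cells, was the most abundant member in both small intestinal libraries. It was at 43.7 FPKM in the large, 74.3 FPKM in the lower and 87.4 FPKM in the upper library. The order was upper, lower, large, and every step was beyond counting error on the deposited scale, though none passed the rule of size. Upper to lower the ratio was 1.18 (1.10 to 1.25) and large to lower 0.588 (0.544 to 0.635). The large to upper ratio had an interval of 0.461 to 0.541, and its log2 difference was -0.98, just short of the rule. With libraries brought to 1 common sum, the log2 differences from large to lower and to upper went from -0.75 and -0.98 to -0.45 and -0.58. Endothelium and red cells are known sources of Aqp1. The 10 endothelial markers summed to 2.196, 2.50 and 3.39 FPKM, the order of Aqp1, with 1 of them above 1 FPKM in each library. That marker was Pecam1 in the large and lower libraries and Esam in the upper. Esam had the order of the sum, at 0.331, 0.766 and 1.83 FPKM, and Pecam1 did not, at 1.31, 1.37 and 0.93 FPKM. Cdh5 and Kdr were at most 0.033 FPKM. The part of endothelium in the Aqp1 values was not tested. Of the 6 red cell genes found, only the globin gene Hba-a1 was above 1 FPKM, at 6.16, 13.4 and 7.46 FPKM. The globin genes Hba-a2 and Hbb-bs were listed at the same value in every library, 0.049 and 0.007 FPKM. Slc4a1, the anion exchanger of the red cell membrane, was at 0.025, 0 and 0 FPKM. The part of red cells in the Aqp1 values was not tested either. Aqp1 had many genes of like level: 79 lay within 0.5 of it, nearest Ptprh (0.08), Irf7 (0.10) and Pfkp (0.11). It lies on chromosome 6 at 55336432 to 55348555 (plus strand).

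Aqp5, a water channel of secretory glands, was listed at 0 in all libraries. An exact 0 can be a failed estimate in these tables, since the ribosomal protein gene Rpl26 was listed at 0 in the large and upper libraries and at 6.14 FPKM in the lower. If the 0 was counted, 3 reads allow up to 0.205, 0.158 and 0.236 FPKM of Aqp5 in the large, lower and upper libraries. It lies on chromosome 15 at 99590782 to 99594829 (plus strand). Its neighbours, Aqp2 and Aqp6, were listed at 0 throughout too. Of 4 other family genes, Aqp2, Aqp6 and Aqp12 were at 0 and Mip, the lens channel, was at 0, 0.043 and 0.065 FPKM, so none was measured.

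The aquaglyceroporins Aqp3 and Aqp7 were lowest in the large intestine, where Aqp8 was highest. Aqp3 was at 0.21 FPKM in the large, 5.40 FPKM in the lower and 15.9 FPKM in the upper library, and Aqp7 at 0.424, 3.05 and 6.72 FPKM. Both were under 1 FPKM in the large intestine alone. Aqp3 was 25.7 times higher in the lower than in the large library (8.54 to 127) and 75.7 times higher in the upper (25.6 to 371), where the large value stood for about 3 reads and the others for 100 and 198. Aqp7 was 7.19 times (3.61 to 16.3) and 15.8 times (8.07 to 35.4) higher, from about 9, 84 and 124 reads. Between the small intestinal libraries Aqp3 was higher in the upper by 2.94 times (2.31 to 3.79) and Aqp7 by 2.204 times (1.66 to 2.94). The log2 difference of Aqp3 was 1.40 and passed the rule. That of Aqp7 was 0.93 with a pseudocount of 1 and 1.11 with a pseudocount of 0.1, so its call depended on that choice.

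Aqp3 and Aqp7 are next to each other on chromosome 4, both on the minus strand, Aqp7 at 41033074 to 41048139 and Aqp3 at 41092722 to 41098183. Between them lie 44582 bases and 1 annotated gene, an snRNA that is not among the genes used here. On the outer sides, Nfx1 next to Aqp7 was at 20.5, 17.4 and 18.3 FPKM and Nol6 next to Aqp3 at 8.31, 9.87 and 9.83 FPKM, so the order of the pair was not that of the genes beside it. Among the 6 members that reached 1 FPKM, Aqp3 and Aqp7 were the closest pair in level and pattern, at a distance of 1.33, followed by Aqp1 and Aqp11 at 2.40. The genes most like Aqp3 were Unc93a (0.32), Agmat, an agmatinase gene (0.32), and the cytokine gene Il33 (0.33), 3 of 4 genes within 0.5. Aqp7 stayed under the 10 FPKM needed for such a search. Adipocytes are a known source of Aqp7, and of 6 adipocyte markers Adipoq, Plin1, Fabp4, Lep and Cfd were listed at 0 in all libraries. The other, Cidec, was at 1.46, 12.5 and 28.7 FPKM, the order of Aqp7, and it is also expressed in enterocytes that store fat. The part of adipocytes in the Aqp7 values was not tested. As given above, Paneth cell, T cell, and B and plasma cell markers had higher sums in both small intestinal libraries than in the large. Aqp3, Aqp7, Aqp1 and Aqp11 were also higher there, and highest in the upper library. The marker sums were slightly lower in the upper than in the lower library. The pancreatic marker sum was high in the upper library alone. The part of these cells in the result was not tested.

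Promoters of the neighbouring pair and of Aqp8 are shown because these genes lie at the opposite ends of the regional pattern. Each is the 250 bases before the first annotated start (RefSeq, GRCm38.p6, the assembly of mm10), written 5′ to 3′ on the gene's strand, and 7 of the 8 members had an entry. Aqp8 is chr7:123462044-123462293 on the plus strand, and Aqp3 and Aqp7 are chr4:41098184-41098433 and chr4:41048137-41048386 on the minus strand. Capitals mark matches, on either strand, to any of 7 short motifs: the TATA box as TATAAA, the core of the CDX motif as CATAAA, the GATA factor motif as AGATAA, the HNF4 motif as CAAAGTCCA, the GC box as GGGCGG, the core of the NFAT5 motif as TGGAAA and the AP-1 motif as TGANTCA.
Aqp8: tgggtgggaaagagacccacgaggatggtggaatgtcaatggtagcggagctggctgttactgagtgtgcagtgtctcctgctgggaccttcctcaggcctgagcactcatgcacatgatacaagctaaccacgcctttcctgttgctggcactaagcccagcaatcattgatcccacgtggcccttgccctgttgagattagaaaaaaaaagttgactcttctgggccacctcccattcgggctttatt
Aqp3: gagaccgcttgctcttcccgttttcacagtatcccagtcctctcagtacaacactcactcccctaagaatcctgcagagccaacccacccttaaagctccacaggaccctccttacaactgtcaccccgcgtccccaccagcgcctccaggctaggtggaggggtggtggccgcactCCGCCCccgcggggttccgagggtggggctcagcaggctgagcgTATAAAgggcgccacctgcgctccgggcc
Aqp7: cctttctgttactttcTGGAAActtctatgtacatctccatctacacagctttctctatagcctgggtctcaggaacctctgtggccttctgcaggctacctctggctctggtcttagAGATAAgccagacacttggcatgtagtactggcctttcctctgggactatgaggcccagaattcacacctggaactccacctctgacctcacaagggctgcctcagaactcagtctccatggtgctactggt
Aqp3 had a TATA box match beginning 29 bases before the start and a GC box match at 73 bases. Aqp7 had a GATA match at 132 bases and an NFAT5 core match at 234 bases. The Aqp8 window held none of the 7. Of 27025 windows of the same length, 12.98% held TATAAA, 33.0% GGGCGG, 10.2% AGATAA, 18.7% TGGAAA, 11.1% CATAAA, 6.85% TGANTCA and 0.377% CAAAGTCCA. None of the matches was shared by the pair. Matches describe letters in these windows and not sites of binding.

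Aqp9, an aquaglyceroporin known from liver and leukocytes, was barely detected, at 0.045, 0.069 and 0.36 FPKM in the large, lower and upper libraries. These values stood for about 1, 2 and 7 reads. The upper to lower ratio was 5.22 (0.994 to 51.5) and the large to upper ratio 0.125 (0.00276 to 0.968), and neither comparison counted as measured. The 6 neutrophil markers found summed to 0.667, 9.49 and 9.28 FPKM, of which Retnlg alone was at 0, 6.305 and 7.84 FPKM. The 8 macrophage markers summed to 2.50, 15.5 and 7.81 FPKM. The part of these cells in the Aqp9 values was not tested. Aqp9 lies on chromosome 9 at 71110659 to 71168682 (minus strand) and overlaps an annotated pseudogene and an antisense gene, whose reads cannot be told apart from its own without strand.

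Aqp11, which resides in the endoplasmic reticulum, was expressed throughout, at 15.6 FPKM in the large, 22.2 FPKM in the lower and 46.2 FPKM in the upper library. Its order was that of Aqp1 and the aquaglyceroporins, with every step beyond counting error on the deposited scale. Upper to lower the ratio was 2.08 (1.91 to 2.27), large to lower 0.702 (0.628 to 0.783) and large to upper 0.337 (0.303 to 0.374). The log2 differences were 1.03, -0.49 and -1.51, so it passed the rule in both comparisons with the upper library and not between large and lower. The large to lower value depended on the scale: it was -0.19 with libraries brought to 1 common sum and -0.22 with a common sum over genes outside the short RNA classes. The large to upper value moved as well, to -1.12 and -1.22 in these settings, still past the rule. Nearest in level and pattern were Pcyt1a, of phosphatidylcholine synthesis (0.24), Tmem106a (0.27) and Chd3, a chromatin remodeller gene (0.27), among 29 genes within 0.5. Aqp11 lies on chromosome 7 at 97724006 to 97738289 (minus strand), between Clns1a, at 12.7, 12.2 and 14.2 FPKM, and Pak1, at 30.04, 37.6 and 34.7 FPKM.

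**Figure D3:**
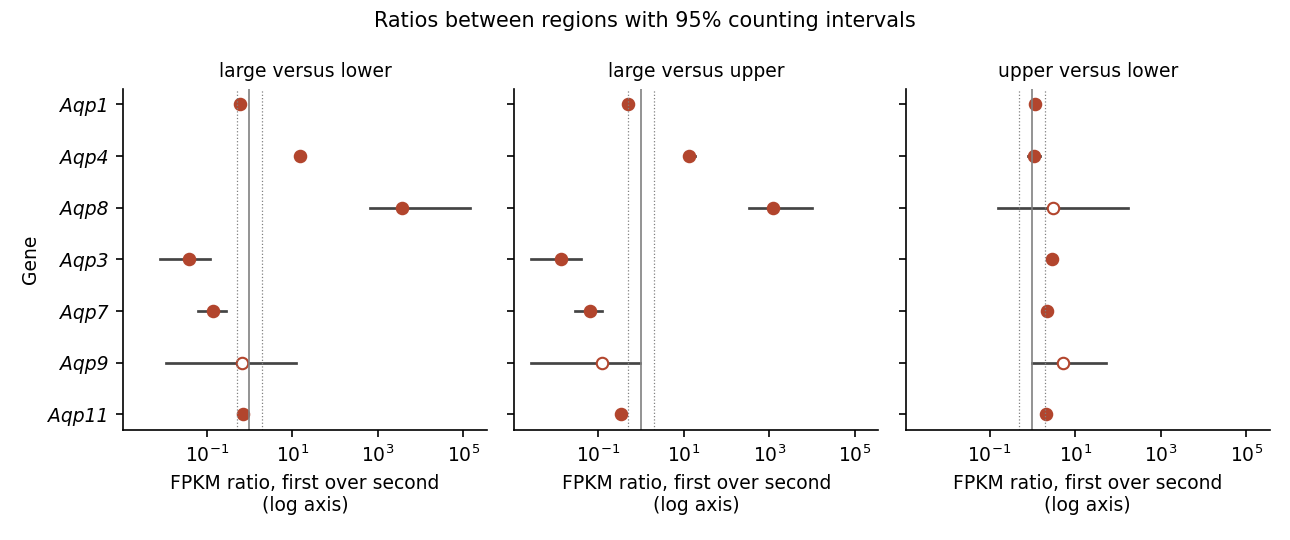
FPKM ratios of the first over the second library (horizontal log axis) for 7 members in the 3 comparisons, with 95% counting intervals as lines. Filled points were measured and open points stayed under 1 FPKM in both libraries. The solid line is at a ratio of 1 and dotted lines are at 0.5 and 2. Intervals are wide for Aqp8 and Aqp3, which rest on 1 to 3 reads in 1 library of each pair with the large intestine, and in upper versus lower those of Aqp4, Aqp8 and Aqp9 include 1.

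The aquaporins were then set beside genes of the processes they serve. Against the lower library, 9.75% of all measured genes passed the rule as higher in the large intestine and 10.5% as lower, and against the upper library 11.2% and 11.7%. Among 9 measured genes of glycerol handling, 1 was higher and 3 lower in the large intestine in each comparison, with medians of 0.02 and -0.03, and 1 of 9 is near the share of all genes. The lower ones were the cytosolic and mitochondrial glycerol-3-phosphate dehydrogenase genes Gpd1, at 14.3, 126 and 283 FPKM, and Gpd2, at 14.1, 40.6 and 66.6 FPKM, and the lipase gene Lipe, at 4.36, 24.1 and 41.1 FPKM. All had the order of Aqp3 and Aqp7. Mgll, which encodes monoglyceride lipase, had the opposite order, at 11.3, 1.73 and 0.941 FPKM. Gyk, encoding the glycerol kinase, was at 24.6, 33.7 and 47.5 FPKM and did not pass the rule.

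Ion and nutrient transport draws water across the epithelium. Of 10 measured absorptive genes, 6 were higher in the large intestine and 1 lower in each comparison, with medians of 1.77 and 1.61. Slc9a3 was among the 6 against the lower library alone and Slc9a2 against the upper alone. The list holds mainly ion transport genes and was chosen with earlier results of these data known. Its shares describe the list and not absorption as a whole. Of all measured genes, 9.75% and 11.2% were higher and 10.5% and 11.7% lower, so 1 of 10 lower is near that share. Fxyd4, a regulator of the sodium pump, had 51.9 FPKM in the large intestine, with 0 listed elsewhere. Slc26a3, the chloride-bicarbonate exchanger, was at 472, 48.7 and 72.7 FPKM and is also among the colonocyte markers. The sodium channel subunit gene Scnn1a was at 53.9, 6.03 and 4.16 FPKM. The sodium-glucose cotransporter gene Slc5a1 was the 1 lower gene, at 67.6, 409 and 915 FPKM, in the order of Aqp3. Of 9 measured secretory genes, 2 passed the rule as higher and 1 as lower against the lower library (median 0.81; 9.75% and 10.5% of all genes), and 3 and 1 against the upper (median 0.48; 11.2% and 11.7%), the 1 lower again near the share of all genes. Ano1, a calcium-activated chloride channel gene, was at 51.5, 1.11 and 0.315 FPKM, and Slc26a6, an anion exchanger gene, at 1.08, 56.8 and 108 FPKM.

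Of 12 measured genes of osmotic and hormonal control, 6 passed the rule as higher in the large intestine against the lower library (9.75% of all genes) and 5 against the upper (11.2%), with 0 lower (10.5% and 11.7%) and medians of 0.96 and 0.63. Among these, Akr1b3 passed in both comparisons, at 2.94, 0.001 and 0.001 FPKM. By the steps given above, 0.001 FPKM is less than 1 read, so those values, like an exact 0, can be failed estimates. Adcy6 passed against the lower library alone, at a difference of 1.0005. Hsd11b2, which guards the mineralocorticoid receptor from glucocorticoids, was at 143, 11.7 and 3.75 FPKM, and the receptor gene Nr3c2 at 42.9, 10.96 and 13.5 FPKM. Pparg was at 54.4, 3.21 and 12.2 FPKM. Avpr2, the vasopressin receptor gene that controls Aqp2 in the kidney, was at 0.561, 0.21 and 0.166 FPKM. Hydrogen peroxide is a molecule that Aqp3 and Aqp8 can pass. Of 8 measured genes of its production, 0 passed the rule as higher and 2 as lower in the large intestine against the lower library (median 0.41; 9.75% and 10.5% of all genes), and 2 and 0 against the upper (median 0.07; 11.2% and 11.7%). The 2 higher against the upper library were Nox1, at 13.1, 7.96 and 3.20 FPKM, and Noxa1, at 36.4, 20.4 and 13.7 FPKM. Both were highest in the large intestine. Duox2 and its maturation factor gene Duoxa2 peaked in the lower library, at 11.3, 92.1 and 11.03 FPKM and at 3.94, 109 and 7.16 FPKM. No measured aquaporin peaked in the lower library.

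**Figure D4:**
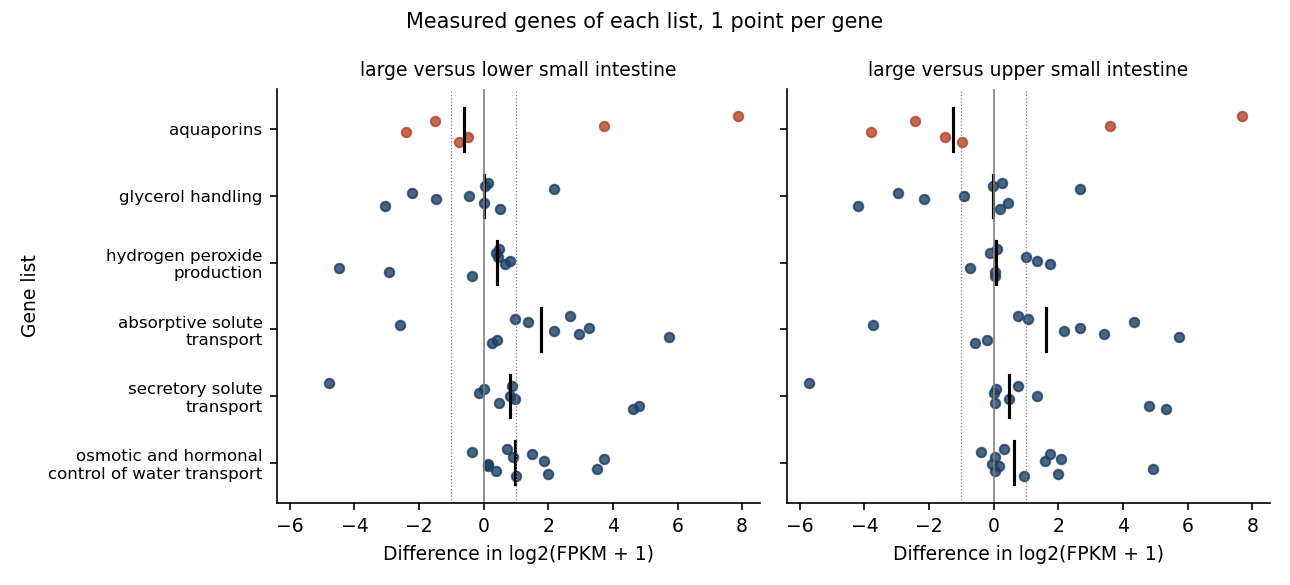
Differences in log2(FPKM + 1) of the large intestine minus the lower (left) and minus the upper (right) small intestine, 1 point per measured gene, for the aquaporins (red) and 5 gene lists (blue). Black bars are medians and dotted lines mark the rule of size at -1 and 1. The aquaporin points spread to both sides, with Aqp8 at 7.86 and 7.70, while the absorptive list lies mostly to the right.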

How the data were processed

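RNA was sequenced from 3 libraries, 1 per region, made with a stranded TruSeq mRNA kit per the labels' protocols. The deposited tables give 1 FPKM value per gene and library, a unit inferred from the values. TopHat2 2.0.13, Bowtie2 2.2.3, SAMtools 0.1.19, Cufflinks 2.2.1 and mm10 are named per the submitters' processing notes, without roles. Annotation, filters and the strand setting: not given in the sources used here. Median ratios to the geometric mean were 1.00, 1.01 and 0.999 for the large, lower and upper libraries. How the authors scaled the libraries is not stated.

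FPKM times transcript length, less 175 nt, lay near whole multiples of a step (0.111, 0.0855 and 0.1275 FPKM × kb for 1 read) where a gene had a single transcript, 1500 nt or longer. Within 0.15 of a whole read were 80.0%, 81.5% and 81.7% of 380, 416 and 371 low genes, where 30% would be by chance for a step fixed beforehand; these steps were fitted to the same values. Implied reads used the shortest transcript with a RefSeq link (GENCODE M21). Their intervals and floors cover counting error only, because such reads carry no molecular identifiers and are not independent molecules. No count test was run on them.

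Of 24346 names, 23310 matched GENCODE. Promoter windows came from RefSeq (GRCm38.p6) and signature motifs from the longest open reading frame of the same transcripts. Named were all members, up to 3 genes of largest difference per list and comparison, and the 3 genes most like each member at 10 FPKM or more, short RNA genes left out; other list or marker genes and neighbours were named after their values were seen. The members and lists were chosen with earlier results of these data known. Scripts ran in Python 3.11.15 with SciPy 1.17.1 and were tested on simulated data. Alternatives were the pseudocount, the filter on low values, the threshold and the scaling.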

Additional observations from a re-analysis of the deposited data

How the results depend on the processing

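No measured member changed sign under any alternative run (pseudocount 0.1, no filter, a filter of 5 FPKM, a threshold of 1.5 log2 units, the same sum for each library, and the same sum over genes outside the short RNA classes, the last chosen after seeing the data). Between the large intestine and either small intestinal library the members past the rule were unchanged, except that Aqp7 against the lower library was not measured at a filter of 5 FPKM. Between upper and lower, 2 members passed as deposited, 1 with libraries rescaled to the same sum, 0 at a threshold of 1.5 log2 units and 3 at a pseudocount of 0.1. At that threshold 1350, 1591 and 398 genes of the whole table passed in the 3 comparisons, by construction fewer than the 2505, 2828 and 817 at 1 log2 unit. With libraries rescaled to the same sum, the log2 difference of Aqp1 (large minus the other) went from -0.75 to -0.45 against the lower and from -0.98 to -0.58 against the upper library. That of Aqp11 went from -0.49 to -0.19 against the lower and from -1.51 to -1.12 against the upper library. Leaving out a replicate was not possible with 1 library per region. Differences between animals were not measured here, and for Aqp8, Aqp9 and Aqp3 depth limits every ratio that rests on 1 to 7 reads.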
